A study of Mus musculus with 4 samples.

Results

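The Trim12 and Trim30 cluster genes are 7 genes of a tripartite-motif locus on mouse chromosome 7, namely Trim12a, Trim12c, Trim30a, Trim30b, Trim30c, Trim30d and Trim34a. They were taken by symbol from the 32285 genes of the count tables, and all 7 were found. The members were chosen by their measured levels across cell classes and libraries, above all those of Trim12a, which had no UMI (unique molecular identifier, 1 counted RNA molecule) in astrocytes of nude and BALB/c mice. Differences of the members between mouse groups are therefore a description. P-values of members are printed only in the closing section and are no independent support. RNA was counted in single nuclei of the microdissected lateral septum (LS), a forebrain region that regulates affective behavior. The 4 libraries each came from pooled tissue of 3 male mice aged 6 to 8 weeks. The C57J group (C57BL/6JNifdc mice) had 2 libraries, C57J 1 from batch 1 and C57J 2 from batch 2. The nude group (BALB/c nude mice, which carry a Foxn1 mutation and lack a thymus and most T cells) and the BALB/c group had 1 library each, both from batch 2. Nude mice are on the BALB/c background, and both libraries together are called the BALB/c background here. Where 4 values follow one another, the first pair belongs to C57J 1 and C57J 2, the third to nude and the last to BALB/c.

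TRIM proteins carry a RING finger, a B-box and a coiled coil, and many end in a SPRY domain that binds their targets. Most act as E3 ubiquitin ligases, and many serve innate immunity. Trim5 and its rodent relatives Trim12a and Trim12c belong to the branch known for restriction of retroviruses through their capsid. Trim30a is induced by Toll-like receptor signals and restrains NF-kB by promoting the loss of TAB2 and TAB3. In the brain, microglia are the resident macrophages and carry most of these receptors, and astrocytes also answer interferon.

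The genes lie close together and resemble one another. In the GENCODE annotation of mm10 (GRCm38) the members span chr7:104244457-104507849. They stand in the order Trim34a (chr7:104244457-104262234), Trim12a (chr7:104299894-104315466), Trim12c (chr7:104338754-104353362), Trim30b, Trim30c, Trim30a (chr7:104409025-104465193) and Trim30d (chr7:104470014-104507849). Trim34a is on the plus strand and the others are on the minus strand. The paralogs Trim5 and Trim34b, which are not members, lie among them. Of the 50-base windows of the longest Trim12a transcript, 23.5% also occurred in another gene, most often Trim5. The share was 32.7% for Trim12c, 41.3% for Trim34a (all with Trim34b), 6.53% for Trim30a and 8.29% for Trim30d. In the last 500 bases, near which reads of a 3′ assay start, it was 0% for Trim12a, Trim30a, Trim30d and Trim34a and 7.76% for Trim12c. Reads from the shared stretches cannot be assigned to 1 gene with certainty.

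The promoters of 5 members are shown because they hold the same interferon-type element. They were not picked by resemblance. Each run is the 300 bases around a RefSeq start (250 before it to 50 after, GRCm38.p6), written 5′ to 3′ on the strand of the gene. Capitals mark matches, on either strand, to GAAA followed by any 2 bases and GAAA again, the spaced pair found in interferon-stimulated response elements. All 7 members matched the RefSeq table by symbol.
Trim12a, chr7:104315446-104315745, minus strand: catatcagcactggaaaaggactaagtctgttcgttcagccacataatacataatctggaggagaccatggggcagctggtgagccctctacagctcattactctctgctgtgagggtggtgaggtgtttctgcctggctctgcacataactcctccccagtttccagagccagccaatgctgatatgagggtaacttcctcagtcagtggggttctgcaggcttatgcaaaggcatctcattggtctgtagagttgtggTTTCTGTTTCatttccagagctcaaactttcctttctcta
Trim12c, chr7:104353300-104353599, minus strand: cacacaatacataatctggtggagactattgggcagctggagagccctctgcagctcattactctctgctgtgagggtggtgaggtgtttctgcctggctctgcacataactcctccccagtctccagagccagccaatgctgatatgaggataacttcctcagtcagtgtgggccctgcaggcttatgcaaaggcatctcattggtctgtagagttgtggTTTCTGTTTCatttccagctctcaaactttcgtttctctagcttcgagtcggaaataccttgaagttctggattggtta
Trim30a, chr7:104465144-104465443, minus strand: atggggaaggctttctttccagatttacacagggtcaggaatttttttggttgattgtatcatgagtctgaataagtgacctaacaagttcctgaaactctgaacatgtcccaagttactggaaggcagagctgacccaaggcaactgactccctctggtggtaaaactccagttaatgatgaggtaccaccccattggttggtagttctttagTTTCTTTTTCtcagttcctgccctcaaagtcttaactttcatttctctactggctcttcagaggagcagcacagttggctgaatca
Trim30d, chr7:104507800-104508099, minus strand: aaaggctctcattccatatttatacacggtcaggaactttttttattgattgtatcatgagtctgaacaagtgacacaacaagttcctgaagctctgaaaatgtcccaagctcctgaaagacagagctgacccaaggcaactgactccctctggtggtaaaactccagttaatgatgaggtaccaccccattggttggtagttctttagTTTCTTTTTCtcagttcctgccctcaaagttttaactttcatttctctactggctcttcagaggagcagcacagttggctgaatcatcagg
Trim34a, chr7:104244207-104244506, plus strand: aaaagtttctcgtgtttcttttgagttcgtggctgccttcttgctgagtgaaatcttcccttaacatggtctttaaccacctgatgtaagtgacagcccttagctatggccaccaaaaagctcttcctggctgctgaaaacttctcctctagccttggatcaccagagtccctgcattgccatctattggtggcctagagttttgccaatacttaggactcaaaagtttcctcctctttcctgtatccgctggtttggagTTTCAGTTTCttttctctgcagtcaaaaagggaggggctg
The motif stood in a promoter of 5 of the 7 members (these 5, and not Trim30b or Trim30c) and in that of Trim5. The Trim30b window (chr7:104358597-104358896) lies inside the GENCODE span of the gene (chr7:104355382-104369884), so its GENCODE start was not examined. It was found in 1131 of 32851 promoters of the same length, or 3.44%. Aligned promoters of Trim12a and Trim12c were 95.0% identical over 260 bases, and those of Trim30a and Trim30d 93.6% over 295 bases. The Trim12a promoter was 100% identical to that of Trim5 over 241 bases. The Trim34a promoter was 55.4% to 61.3% identical to the other 4 shown. That of Trim30c, not shown, was 83.4% identical to that of Trim30a and 84.2% to that of Trim30d, without the motif. Matches in near-identical promoters are not independent, and a match describes the letters only.

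The libraries held 12558 to 17025 barcodes and 72912922 to 125998527 UMIs. After limits on quality and removal of predicted doublets, 13075, 12489, 12948 and 10913 nuclei remained, with a median of 5379, 4073, 4491 and 8368 UMIs. Clusters were named by markers, without the members, as LS neurons (24022 nuclei), other neurons, astrocytes, oligodendrocytes, oligodendrocyte precursor cells (OPCs), microglia (287 to 396 nuclei in a library) and 4 small classes. Pairs of libraries shared 29 to 63 barcodes. Foxn1 had 5, 2, 2 and 4 UMIs, too few to check the labels, and Cd3e, Cd3d and Cd3g of T cells had 0 to 3 each. The further T cell markers had 10, 7, 6 and 6 UMIs (Trac), 16, 4, 7 and 10 (Trbc2) and 71, 144, 103 and 125 (Cd247). Nude was not the lowest library for Trbc2 or Cd247, so these markers do not check the labels either. The 7 microglia markers summed to 100, 118, 94.4 and 106 UMIs per 1000000 (CPM) over all nuclei, and the groups overlapped. The 6 markers of striatal neurons, the neurons of the neighboring striatum, summed to 316, 188, 123 and 160 CPM and were higher in both C57J libraries. In sums over all nuclei, fewer cells of a type and less RNA per cell cannot be told apart.

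Trim12a was counted in C57J and all but absent from the counts of the BALB/c background. Reads of both backgrounds were counted on the same genome, mm10. Whether sequence or gene copy differences between strains lowered the counts of a member was not tested. Over all nuclei it had 276, 241, 0 and 1 UMIs, or 3.52, 4.05, 0 and 0.00978 CPM. Both C57J libraries stood far above the others, and the pooled C57J level was 630 times that of the BALB/c background (95% interval from counting 113 to 24947). Its close paralog Trim12c had 88, 88, 95 and 172 UMIs, or 1.12, 1.48, 1.44 and 1.68 CPM. Here the groups overlapped. The log2 fold change of the BALB/c background against C57J, as fitted by edgeR, was 0.29 ± 0.26 (SE derived from the F statistic). The sum of both Trim12 genes was 4.64, 5.53, 1.44 and 1.69 CPM, so it too was lower in nude and BALB/c.

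**Figure D1:**
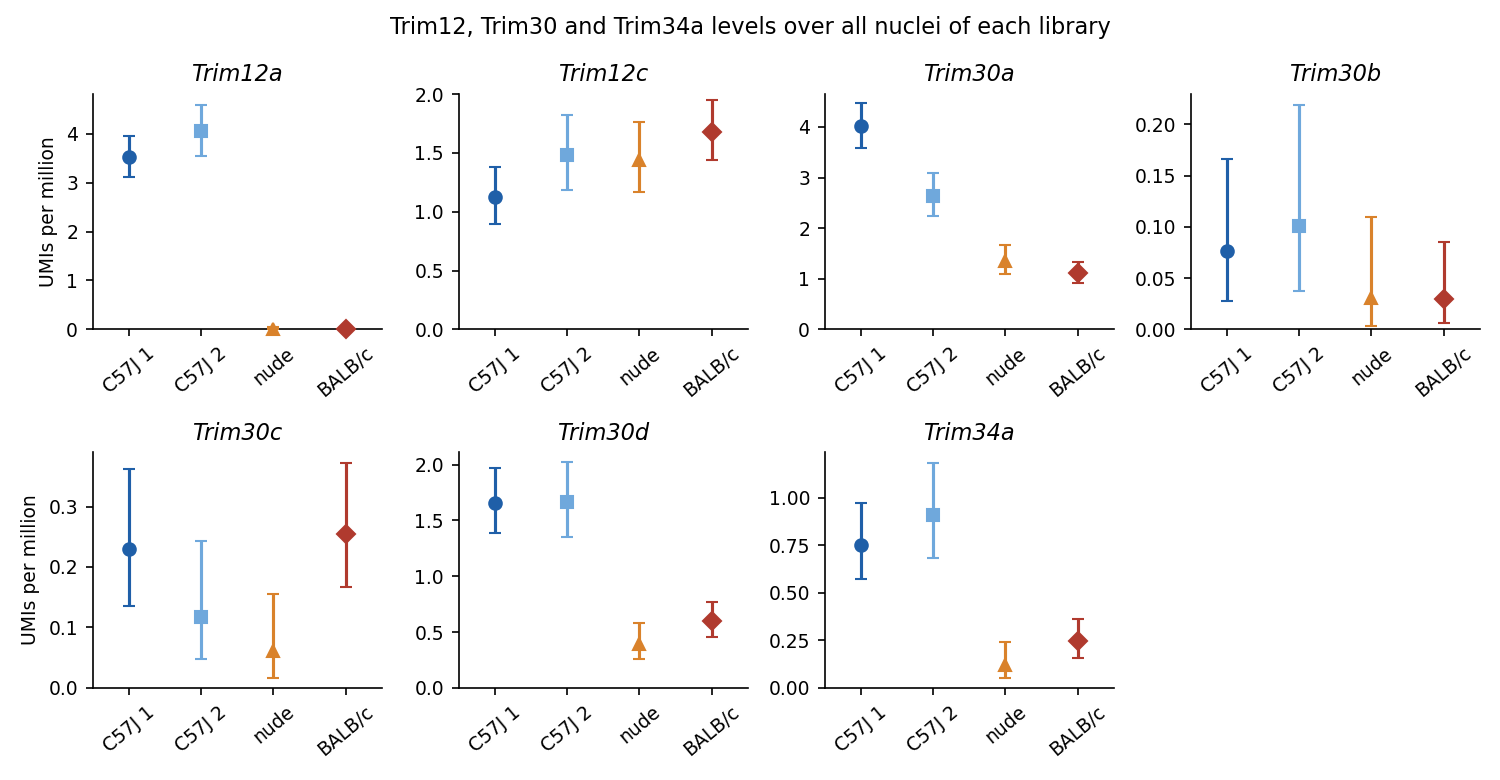
UMIs per 1000000 over all nuclei (vertical axes) of the 7 genes in the 4 libraries, with 95% Poisson intervals of the counts as bars. Trim12a is at 3.52 and 4.05 in C57J and near 0 in nude and BALB/c, Trim30a, Trim30d and Trim34a lie lower in nude and BALB/c, and the groups overlap for Trim12c and Trim30c.

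In C57J mice Trim12a was found mostly in astrocytes and microglia. In microglia it was at 71.9 CPM in C57J 1 (95% interval 52.0 to 96.8, 43 UMIs) and 63.7 CPM in C57J 2 (44.1 to 89.0, 34 UMIs). In astrocytes it was at 32.5 CPM (28.0 to 37.5, 188 UMIs) and 40.1 CPM (34.0 to 46.9, 154 UMIs). The intervals of these classes did not touch in C57J 1 and overlapped in C57J 2. Oligodendrocytes had 2.23 and 3.48 CPM, and vascular nuclei had 35.9 and 39.1 CPM from 5 and 4 UMIs. In LS neurons it was at 0.313 and 0.647 CPM, or 0.965% and 1.62% of the astrocyte level. The astrocyte markers reached 4.78% and 3.94% of their astrocyte level in the same neurons, so the neuronal share of Trim12a was below that of the markers and is not read as expression in neurons.

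The share of nuclei with a Trim12a UMI was 8.05% and 7.27% of C57J astrocytes, 11.6% and 7.83% of C57J microglia, and 0.246% and 0.44% of C57J LS neurons. With nuclei thinned to 1000 UMIs it was 3.33% and 3.53% of astrocytes, 5.52% and 5.88% of microglia, and 0.0492% and 0.0677% of LS neurons. Thinning kept 2069 of 2087 and 1843 of 1871 astrocytes, 326 of 329 and 340 of 396 microglia, and all LS neurons. Median depths were 2687 and 1968 UMIs in astrocytes, 1754 and 1314.5 in microglia, and 7907 and 6308 in LS neurons. The deepest class thus had the lowest share.

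In nude and BALB/c the only Trim12a UMI lay in an LS neuron of BALB/c. Astrocytes had 0 UMIs in 1815 nuclei of nude and in 1800 of BALB/c. With a floor of 3 nuclei the share with a UMI would be 0.165% and 0.167%. With a floor of 3 UMIs over both libraries, the level was 141-fold lower in astrocytes and 29.0-fold lower in microglia of the BALB/c background. The intervals from counting start at 114-fold in astrocytes and at 23.0-fold in microglia. Of 13508 genes with at least 10 UMIs in astrocytes of each C57J library, 3 had none in the BALB/c background (0.0222%), namely Trim12a and the transcripts A730017L22Rik and 4930481A15Rik. In microglia it was 4 of 7986 genes (0.0501%), namely Trim12a, Trim30d, Eps8l1 and 4930481A15Rik. The members were chosen with these levels known, and the 0 of Trim12a in astrocytes was part of that choice. Their place among these genes is therefore no evidence that such a loss is rare. The genes that are not members were named after their values were seen.

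Trim12c was also highest in glia. Its astrocyte level was 9.50, 12.5, 16.4 and 16.3 CPM, from 55, 48, 65 and 130 UMIs. Both C57J libraries were the lowest here, opposite to Trim12a, and the pooled C57J level was 0.655 times that of the BALB/c background (95% interval 0.511 to 0.836). The class itself differed between libraries. In it the astrocyte markers ran 10816, 9076, 9467 and 12727 CPM, and the neuron markers 1813, 1874, 2243 and 925 CPM. The part of this in the Trim12c levels was not tested. In microglia it was at 18.4, 26.2, 10.2 and 26.6 CPM, and the groups overlapped. LS neurons had 0.564% to 2.27% of the astrocyte level, under the 2.22% to 4.78% of the astrocyte markers in each library.

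**Figure D2:**
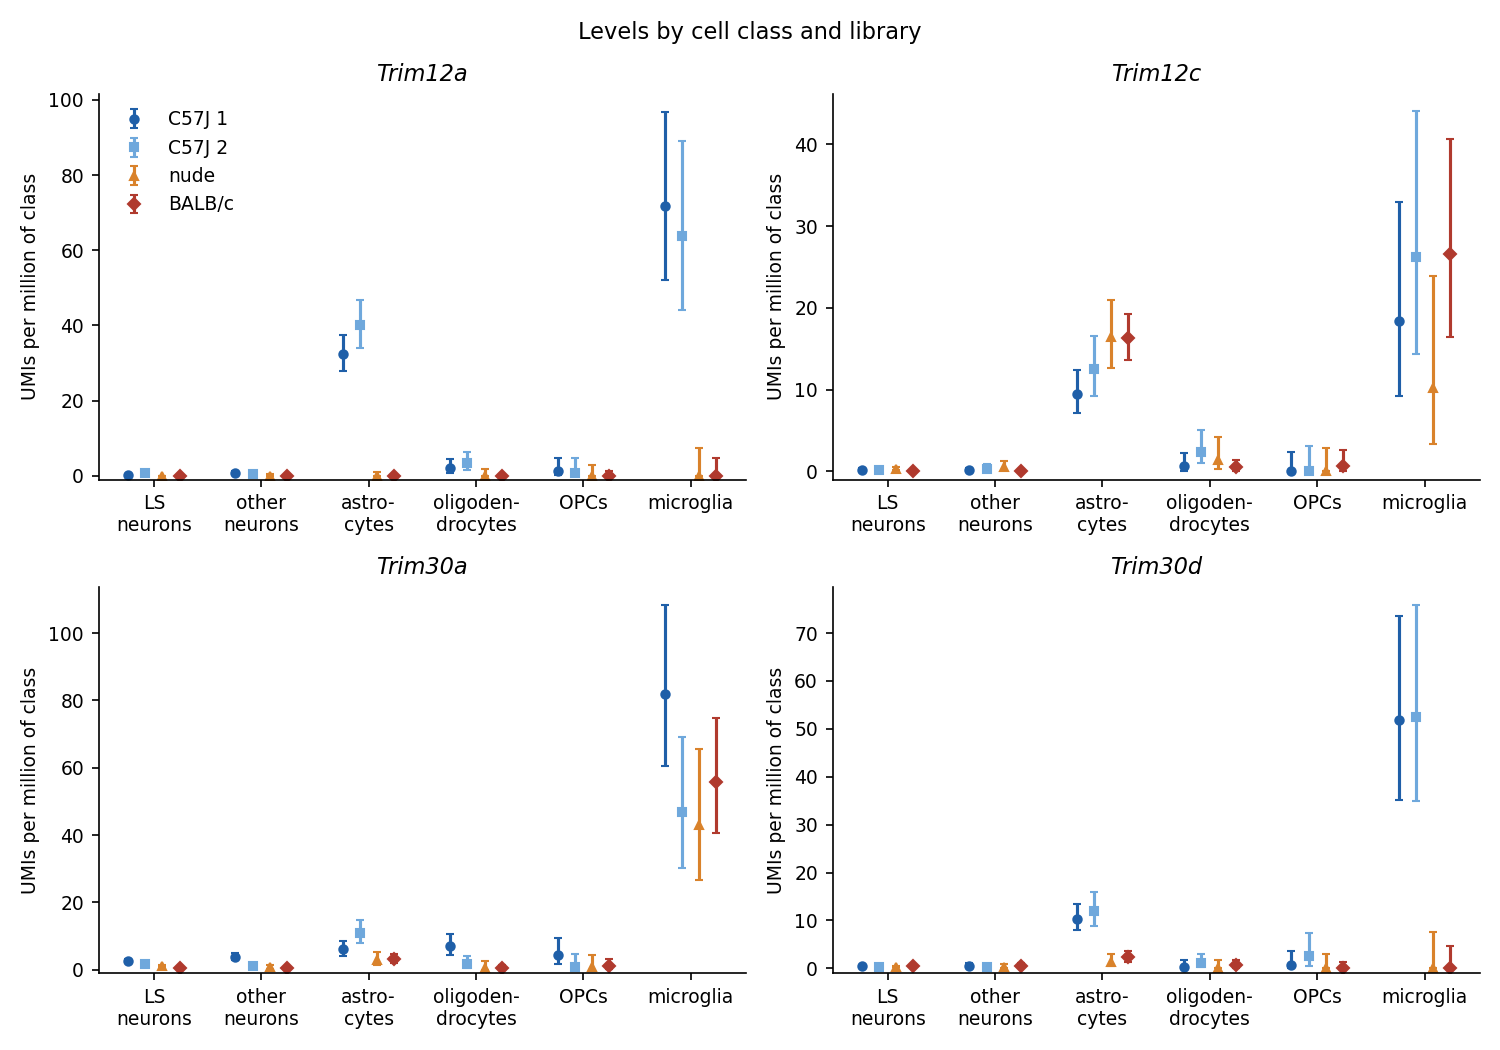
UMIs per 1000000 of the class (vertical axes) of members in 6 cell classes, with 1 point per library and 95% Poisson intervals as bars. Trim12a and Trim30d are at 51.8 to 71.9 in C57J microglia and at 0 in microglia of nude and BALB/c, whereas the groups overlap there for Trim30a and Trim12c.

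Trim30a, the regulator of TAB2 and TAB3, was measured at lower levels in the BALB/c background over all nuclei, while in microglia the groups overlapped. Over all nuclei it had 315, 157, 89 and 114 UMIs, or 4.01, 2.64, 1.35 and 1.11 CPM. Both C57J libraries lay above the others, and C57J 1 was 1.52 times C57J 2. The log2 fold change was -1.43 ± 0.30 (SE), and within batch 2 it was -1.06. In LS neurons it was at 2.63, 1.62, 0.987 and 0.428 CPM (log2 fold change -1.61 ± 0.46). These neuronal levels were 3.20%, 3.45%, 2.30% and 0.768% of the microglial ones, against 0.903%, 1.36%, 1.28% and 0.498% for the microglia markers. In other neurons it was at 3.93, 1.17, 0.734 and 0.513 CPM. The striatal markers ran 1101, 611, 342 and 498 CPM in the same class, and C57J 1 gave 313 of the 425 nuclei of 1 striatal-type cluster in it. Their part in the Trim30a level was not tested.

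Among all classes Trim30a was highest in microglia in each library, at 81.9, 46.8, 43.0 and 55.7 CPM from 49, 25, 21 and 44 UMIs. The groups overlapped, with a ratio of C57J to the BALB/c background of 1.29 (95% interval 0.909 to 1.82) and a log2 fold change of -0.33 ± 0.36. The microglia class itself differed between libraries. In it the microglia markers ran 5634, 4759, 4321 and 7921 CPM, and the neuron markers 2725, 2964, 3361 and 1526 CPM. The part of this in the microglial levels of the members was not tested. In astrocytes Trim30a was at 6.05, 10.9, 3.03 and 3.13 CPM.

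Trim30d, a close paralog of Trim30a, had no UMI in microglia of the BALB/c background. C57J microglia had 31 and 28 UMIs, or 51.8 CPM (95% interval 35.2 to 73.6) and 52.5 CPM (34.9 to 75.8). Nude and BALB/c microglia had 0, with upper limits of 7.55 and 4.67 CPM. With a floor of 3 UMIs the level was 22.2-fold lower, and the 95% interval from counting starts at 17.5-fold. A UMI was found in 29 of 329 and 27 of 396 C57J microglia, and in 0 of 332 and 0 of 287 in nude and BALB/c. With a floor of 3 nuclei the share would be 0.904% in nude and 1.05% in BALB/c. In astrocytes Trim30d was present in every library, from 60, 46, 5 and 19 UMIs, at a pooled C57J level 5.48 times that of the BALB/c background (95% interval 3.49 to 8.93).

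In LS neurons the Trim30d groups overlapped, at 0.549, 0.373, 0.357 and 0.413 CPM (log2 fold change -0.25 ± 0.38). The neuronal level was 5.29% and 3.12% of the astrocyte level in C57J, near the 4.78% and 3.94% of the astrocyte markers. In nude and BALB/c it was 28.3% and 17.4%, against 4.19% and 2.22% for the markers. The neuronal share of Trim30d was thus near that of the markers in C57J and above it in nude and BALB/c.

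Over all nuclei Trim30d had 130, 99, 26 and 61 UMIs, or 1.66, 1.66, 0.394 and 0.596 CPM. Both C57J libraries lay above the others, with a log2 fold change of -1.71 ± 0.31 (SE). The remaining Trim30 genes were sparse. Trim30b had 6, 6, 2 and 3 UMIs, of which microglia held 5, 5, 2 and 2. Trim30c had 18, 7, 4 and 26 UMIs, of which microglia held 9, 4, 0 and 14. Its groups overlapped (log2 fold change -0.07 ± 0.69), and over all nuclei it was the member for which nude and BALB/c lay farthest apart, with a nude level 0.239 times that of BALB/c (95% interval 0.0605 to 0.688), leaving aside Trim12a.

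Trim34a, an interferon-induced relative at the other end of the locus, had 59, 54, 8 and 25 UMIs, or 0.752, 0.907, 0.121 and 0.244 CPM. Both C57J libraries lay above the others (log2 fold change -2.10 ± 0.41). Astrocytes held 32, 32, 3 and 20 of these UMIs. Its paralog Trim34b went the other way, with 2, 0, 16 and 35 UMIs (log2 fold change 4.23 ± 0.76). Over all nuclei the sum of Trim34a and Trim34b was 0.777, 0.907, 0.364 and 0.587 CPM, so both C57J libraries still lay above the others. The pooled C57J level of the sum was 1.67 times that of the BALB/c background (interval from counting 1.25 to 2.24). Both C57J libraries were also higher for the sum in LS neurons and microglia. In astrocytes the sum was 5.87, 8.32, 3.28 and 6.00 CPM, and the groups overlapped, as they did in other neurons. As 44.3% of the windows in the last 500 bases of Trim34b occurred in another gene, the split between this pair is uncertain.

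Over all nuclei, 5 of the 7 members were higher in both C57J libraries than in nude and BALB/c, and 0 were lower in both. Of the 23434 genes with at least 10 UMIs, 24.5% were higher and 18.2% lower in this way. The contrast was part of the choice of members, so nothing is read from these counts. The filter on low counts, which looks at the level in any group, removed Trim30b and kept the other 6.

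Some genes near Trim12a that are not members were also lower in nude and BALB/c. On the side of Trim34a this held for Trim5 alone among those with at least 10 UMIs. Of the 67 genes of the count tables within 500 kb of the outermost members, 22 had at least 10 UMIs over all nuclei, 15 of them not members. Of these 15, 8 were higher in both C57J libraries, 2 were lower (Trim34b and Trim6) and 5 overlapped. Of all genes with at least 10 UMIs, 24.5% were higher and 18.2% lower in this way. Trim5, next to Trim12a, had 53, 46, 19 and 11 UMIs. In astrocytes it had 23, 22, 1 and 0 UMIs, in microglia 19, 14, 1 and 0, and in LS neurons 3, 5, 13 and 8, so its C57J excess was seen in both glial classes. Gm15133, annotated as antisense across the start of Trim12a, had 9, 5, 0 and 0 UMIs. Beyond Trim30d, the olfactory receptor genes Olfr652, Olfr655, Olfr656, Olfr657 and Olfr658 were each lower in nude and BALB/c. Olfr655 had 56, 55, 19 and 29 UMIs, and Olfr658 had 37, 47, 17 and 25. On the other side Olfr66, Olfr639 and Olfr648 overlapped between the groups, with 10 to 18 UMIs in all. The globin gene Hbb-bs, a mark of blood cells, had 135, 3, 6 and 27 UMIs.

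**Figure D3:**
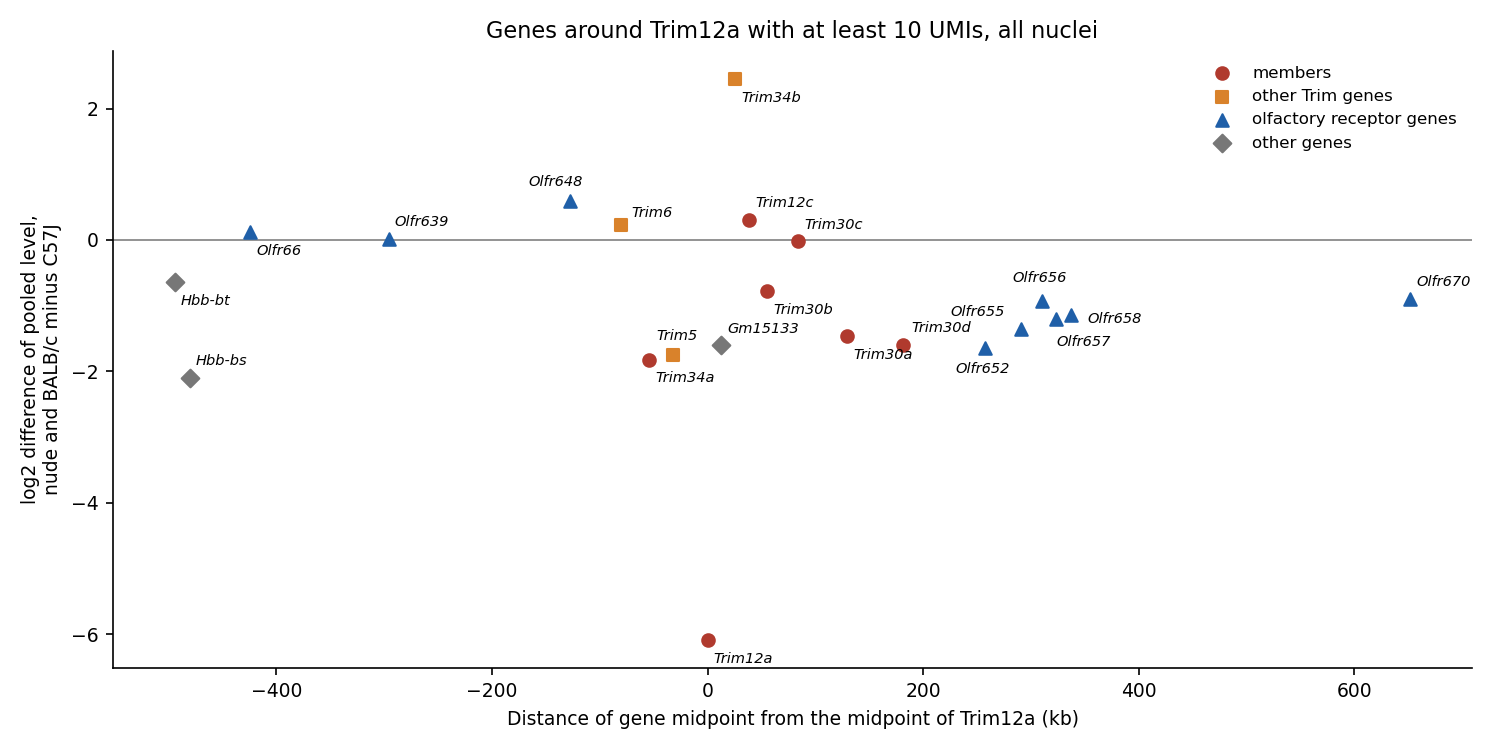
Difference of pooled levels, nude and BALB/c minus C57J, as log2 of UMIs per 1000000 plus 0.05 (vertical axis), against the distance of a gene from Trim12a in kb (horizontal axis), for the 22 genes with at least 10 UMIs. Trim12a is lowest, Trim30a, Trim30d and the olfactory receptor genes from Olfr652 to Olfr658 lie below 0, and Trim34b lies highest above 0.

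Nude and BALB/c could be compared by their values only. Over all nuclei the ratio of nude to BALB/c was 0.856 for Trim12c (95% interval 0.659 to 1.11), 1.21 for Trim30a (0.907 to 1.61), 0.661 for Trim30d (0.401 to 1.06) and 0.496 for Trim34a (0.193 to 1.13). All 4 intervals include 1. Over all nuclei and 6 classes, 33 such intervals could be formed for the members other than Trim12a, and 5 did not include 1. No share over all genes stands beside this count, so nothing is read from it. In LS neurons the nude level was 2.31 times that of BALB/c for Trim30a (1.41 to 3.82, 47 and 28 UMIs) and 3.21 times for Trim12c (1.16 to 10.2, 14 and 6 UMIs). In other neurons it was 9.21 times for Trim12c (1.03 to 436), from 5 and 1 UMIs. The Trim12c share in LS neurons was below that of the astrocyte markers, so it is not read as expression in those neurons. The astrocyte markers ran 397 and 282 CPM in LS neurons of nude and BALB/c, and 382 and 215 CPM in other neurons. Their part in the Trim12c ratios was not tested. Trim30c was lower in nude over all nuclei, as given above, and in microglia, with 0 and 14 UMIs. These intervals cover counting error only.

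No gene on 2 lists of pathways in which TRIM proteins act was called by edgeR. So small a share is near the 1.54% called over all genes, and nothing is read from it. Of 41 genes of the interferon response, counting the receptor genes Ifnar1 and Ifnar2, 39 were measured and 33 passed the filter in all nuclei. edgeR's quasi-likelihood test, which called 314 of 20400 genes (1.54%), called 0 of them in either direction (5 at an unadjusted p under 0.05). Their median log2 fold change was -0.22, beside -0.01 over all genes tested, and 23 of the 33 had a negative value. In microglia 13 passed the filter and 0 had an unadjusted p under 0.05. edgeR called 0 of all 8872 genes there (0%), and the median of the 13 was 0.09, beside -0.02 over all genes tested. The interferon receptor chains Ifnar1 and Ifnar2 and the nucleotide hydrolase Samhd1, with the most UMIs, had log2 fold changes of 0.19, 0.06 and 0.01. Of 28 Toll-like receptor and NF-kB genes, 27 passed the filter and edgeR called 0 (6 at an unadjusted p under 0.05), with a median of 0.01. Tab2, a target of Trim30a protein, had a log2 fold change of 0.03 ± 0.08 over all nuclei and 0.21 ± 0.36 in microglia, where it had 139, 117, 86 and 261 UMIs. Traf3, a signaling adaptor, and Nfkb1, an NF-kB subunit, had log2 fold changes of 0.08 and 0.19.

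Of 58 Trim genes outside the locus, 40 passed the filter in all nuclei and edgeR called 3. Of all genes, 0.931% were called lower and 0.608% higher in the BALB/c background. Trim71, a regulator of stem cell fate, fell (184, 138, 34 and 59 UMIs, log2 fold change -2.07 ± 0.26, edgeR's adjusted p = 0.0193). Trim17, a ligase studied in neuronal death, fell (1308, 1065, 609 and 921 UMIs, log2 fold change -0.91 ± 0.12, edgeR's adjusted p = 0.0268). Trim43b rose (4, 8, 151 and 150 UMIs, log2 fold change 4.40 ± 0.50, edgeR's adjusted p = 0.0148). Whether sequence or gene copy differences between strains moved the counts of Trim71, Trim17 or Trim43b was not tested. The most abundant of the Trim genes outside the locus, Trim2, Trim9 and Trim44, had log2 fold changes of 0.10, 0.11 and 0.08.

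Across 24 points of 6 classes and 4 libraries, the genes whose levels ran most like a member were found by Pearson's r of log2(CPM + 1), a description over points that share libraries. Trim12a ran most like 4930481A15Rik (r = 0.87), the chemokine gene Cxcl5 (0.85) and Tmx2 (0.84). Trim12c ran most like Notch2 (0.96), a receptor gene, Arhgap5 (0.96) and Ggta1 (0.95). For Trim30a the order was Mpeg1 (0.95), the macrophage perforin-like gene, Rgl2 (0.95) and Cebpb (0.95), a transcription factor of myeloid cells. For Trim30d it was Tmem248 (0.88), Gm44949 (0.85) and Nudt7 (0.81).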

How the data were processed

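The authors deposited raw UMI counts per gene and barcode for each library, made per the labels with Cell Ranger 7.0.1 on mm10 from 10x 3′ libraries. Whether introns and strand entered the counting is not given in the sources used here. Nuclei were kept with 200 to 6000 genes, 300 to 50000 UMIs and under 2% mitochondrial UMIs, after the study's methods, and predicted doublets were removed. The 49425 nuclei were clustered with leidenalg 0.10.2 (29 clusters). The members, the other Trim genes of their locus and 60 genes that differed between backgrounds were left out. Counts were summed per library and class, and the 2 C57J libraries were tested against nude and BALB/c with edgeR 4.0.16 (filterByExpr, TMM, quasi-likelihood test, Benjamini-Hochberg adjustment), called at an adjusted p under 0.05 and an absolute log2 fold change over 0.5. DESeq2 1.42.0 was an alternative. Each SE of a log2 fold change is its absolute value divided by the square root of the quasi-likelihood F. It is not an SE that edgeR reports, and it holds the same information as that test. For members it serves as a description only. The members were chosen by levels that this comparison uses, so p-values are printed for other genes, and for members only in the closing section. Tested on simulated data for all nuclei (20400 genes), edgeR recovered 92% of genes changed by 2 on the log2 scale, and for microglia (8872 genes) 67%. Of genes changed by 1 it recovered 62% for all nuclei and 4% for microglia, so smaller changes were mostly missed in simulated microglia. The simulation gave genes of like level the same spread and held no batch or genotype difference. Its shares therefore do not tell how many changes were found in these data. In the real microglia edgeR called 0 of 8872 genes. CPM is UMIs per 1000000 of the class. Intervals are exact Poisson or binomial (95%), a count of 0 was given a floor of 3, and both cover counting error only. Each library is 1 pool of 3 mice, so p-values measure the spread between pools. That spread is not one of like pools, as the C57J pools differ in batch and the other pools differ in genotype (nude or BALB/c). Batch 1 holds only C57J 1, and batch 2 holds 1 library per group. The text names the 7 members, genes within 500 kb, the 3 genes most like each member with at least 200 UMIs, and the genes of each list that were called or had the most UMIs. The members and lists were chosen with earlier results of these data known.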

Additional observations from a re-analysis of the deposited data

Results flagged for a closer look

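The background effect on Trim30d was marked as different between microglia and LS neurons (edgeR's quasi-likelihood test of the difference, adjusted p = 0.0186). Microglia had 31, 28, 0 and 0 UMIs in C57J 1, C57J 2, nude and BALB/c, and LS neurons had 28, 15, 17 and 27. The contrast was added after these UMIs were seen and Trim30d was among the genes chosen by such levels, so the p is no independent support. It missed the threshold without C57J 1 (adjusted p = 0.755), without C57J 2 (0.868) and without BALB/c (0.181), and passed without nude (0.00484). The contrast planned for microglia, against the mean of the other classes, gave a fitted difference of -9.89 on the log2 scale with an adjusted p of 1, which is void because microglia and OPCs had no UMI in the BALB/c background. Groups of 1 and 2 libraries are too small to look for a library far from its group.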

How the results depend on the processing

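The number of genes called by edgeR depended on the processing. With DESeq2 it went from 314 to 736 in all nuclei, from 419 to 677 in LS neurons, from 100 to 312 in other neurons, from 8 to 95 in astrocytes, from 9 to 76 in oligodendrocytes and from 0 to 18 in microglia. With no filter on low counts it was 846, 1056, 1016, 463 and 237 in the first 5 of these, 88 in microglia and 180, in place of 26, in OPCs. With a minimum of 10 UMIs it was 162 in other neurons, 20 in oligodendrocytes, 78 in OPCs and 7 in microglia. With doublets kept it was 52 in astrocytes, 59 in oligodendrocytes, 58 in OPCs and 60 in microglia, and with nuclei thinned to 1000 UMIs 129 in all nuclei, 202 in LS neurons, 31 in other neurons, 4 in oligodendrocytes and 10 in OPCs. Leaving out 1 library gave 75 to 299 in all nuclei, 49 to 1314 in LS neurons, 47 to 1115 in other neurons, 0 to 970 in astrocytes, 1 to 923 in oligodendrocytes, 50 to 498 in OPCs and 0 to 963 in microglia, where a lone library is assumed to vary like the others. Members were chosen by these levels, so no p of a member here is independent support. Of the members, 0 passed edgeR's class by background test, and 2 did with no filter. Trim30a in microglia had an adjusted p of 0.0280 with no filter, where 0.392% of 27581 genes passed, and of 0.557 with the filter. Trim30d in LS neurons had 0.0324 with no filter, where 0.196% passed. That term is void because microglia and OPCs had no UMI in the BALB/c background. With each class against LS neurons alone 1 passed (Trim30d in microglia, where 0.0675% of 16293 genes passed). The adjusted p of Trim30d in that contrast ran from 0.00484 to 0.868 with 1 library left out. The log2 fold change changed sign for Trim30c in all nuclei (-1.49 to 0.55 with 1 library left out, 0.0315 with doublets kept), Trim12c in LS neurons (-1.19 to 0.43, and 0.0402), Trim12c in microglia (-1.05 to 0.31, and 0.41), Trim30d in LS neurons (-0.51 to 0.10) and Trim30a in microglia (-0.62 to 0.13). The cause was not tested. Of 229 log2 fold changes of the members under the alternatives, 219 kept their direction and these 10 changed sign. No paired analysis was possible because nude and BALB/c have 1 library each. Microglia, with 287 to 396 nuclei in a library, limit what can be seen of sparse members.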
